A study of Mus musculus with 6 samples.

Results

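The genes described here were 10 genes of the alveolar type 1 cell (AT1) that encode its surface proteins or mark its identity. They are *Ager*, *Pdpn*, *Aqp5*, *Emp2*, *Cav1*, *Cav2*, *Clic5*, *Rtkn2*, *Gramd2* and *Hopx*. They were taken as the rows of the count table that carry exactly these symbols, and all 10 were found among the 24421 genes of the table. The RNA came from FACS-sorted, lineage-labeled alveolar type 2 cells (AT2s) of 3 control and 3 caBmpr1a samples, and was sequenced as poly(A) RNA libraries.

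Control samples had the genotype Sftpc-CreERT2/+; R26-tdTomato/+, and caBmpr1a samples had the genotype Sftpc-CreERT2/+; R26-tdTomato/R26-caBmpr1a. Both groups therefore carried the tamoxifen-dependent Cre under *Sftpc* control, the tdTomato lineage reporter at *Rosa26*, and exposure to tamoxifen. At the other *Rosa26* allele the caBmpr1a mice carried an inducible transgene for BMPR1a, a type I receptor for BMP ligands, in a form that signals without ligand. In each group 2 samples were from mice 12 weeks old and 1 was from mice 16 weeks old. The sort followed the tdTomato label, which does not by itself show that the caBmpr1a allele had also recombined in a cell. The labels do not say whether cells of several mice were pooled into 1 library, so the p-values measure the spread between these libraries.

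Gas exchange in the alveolus takes place across AT1s, whose flattened bodies lie against the capillaries, while AT2s keep the air sacs open by releasing surfactant. In the adult lung AT2s can divide and give rise to AT1s, and during this change surfactant genes are lowered while genes of the AT1 membrane, of its caveolae and of its cytoskeleton are switched on. In bulk RNA, more cells of a type and more RNA per cell cannot be told apart.

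Each library held between 21554249 and 28440227 counts, and every member was far above the limit of 3 counts. The lowest count of any member was 287, for *Pdpn* in control replicate 3, and the highest was 46660, for *Ager* in caBmpr1a replicate 3. *Sftpc*, the surfactant gene that defines AT2s, was at 48763.6 ± 9845.4 CPM (counts over a library total corrected by edgeR's TMM factors; SD, n = 3) in control and 43992.3 ± 1341.6 CPM (SD, n = 3) in caBmpr1a libraries. *Id1*, a direct target of BMP signaling, was at 18.5, 20.8 and 19.2 CPM in control replicates 1, 2 and 3 and at 124.4, 176.6 and 411.4 CPM in caBmpr1a replicates 1, 2 and 3, in the order of the group labels. The first principal component of all genes held 49.9% of the variance. On it control replicate 1 (-24.57) and caBmpr1a replicate 3 (-59.95) were below 0, and the other 4 libraries ran from 5.689 to 39.86. On the second component these 2 libraries lay on opposite sides of 0 (-42.96 and 16.59), so they did not form a close pair. Control replicate 1 and caBmpr1a replicate 3 had 3935 and 4494 reads on 4 Y-linked genes, where the other 4 had 0. Values for the members are therefore also given from the 4 libraries without Y-linked reads and from this pair alone.

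The level of each member was first compared per exon length, as RPKM (CPM per kilobase of exon, with the exon length of the deposited table). *Ager*, the receptor for advanced glycation end-products on the basolateral membrane of AT1s, had the highest mean level of the 10. Its level was 915.9 ± 241.2 RPKM (SD, n = 3) in control and 903.8 ± 53.7 RPKM (SD, n = 3) in caBmpr1a libraries, and it held 59% of the summed RPKM of the 10 genes. *Aqp5*, the water channel of the AT1 apical membrane, and *Emp2*, a tetraspan membrane protein of the PMP22 family, came next. These 3 genes together held 87.2% of the sum.

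The other 7 members lay well below them. Control means were 44.9 ± 16.1 RPKM for *Hopx*, 29.2 ± 1.87 RPKM for *Gramd2*, 29.6 ± 10.5 RPKM for *Cav1*, 21.4 ± 7.68 RPKM for *Clic5*, 19.4 ± 2.58 RPKM for *Cav2*, 6.6 ± 2.47 RPKM for *Rtkn2* and 7.53 ± 1.42 RPKM for *Pdpn* (SD, n = 3 each). Over 6 libraries the highest member was 109-fold above the lowest, and *Sftpc* was 63.5-fold above *Ager*. In the order Ager, Aqp5, Emp2, Hopx, Gramd2, Cav1, Clic5, Cav2, Rtkn2, Pdpn, the ranges over 6 libraries of neighbouring genes did not overlap at 3 steps, between *Ager* and *Aqp5*, between *Emp2* and *Hopx*, and between *Cav2* and *Rtkn2*. The ranges of the remaining 6 neighbouring pairs overlapped. Of these, *Cav1* was above *Clic5* within each of the 6 libraries, and in the other 5 pairs the order changed in at least 1 library. The order of the mean levels was not the same in the 2 groups.

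**Figure D1:**
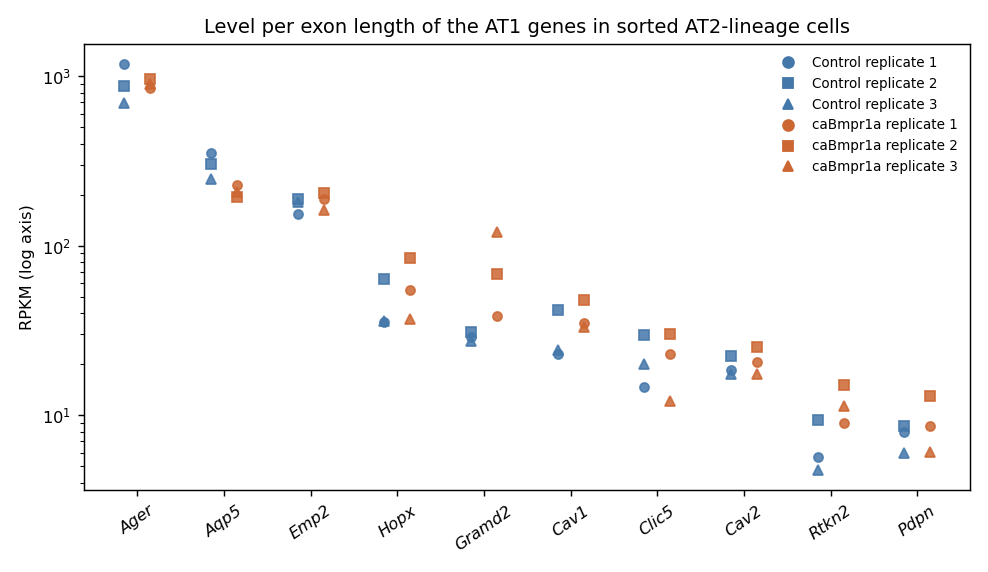
RPKM (log axis) of the 10 AT1 genes, 1 point per library, with control libraries in blue and caBmpr1a libraries in orange. *Ager*, *Aqp5* and *Emp2* lie above the other 7 genes in every library, and *Gramd2* has the widest spread among caBmpr1a libraries, from 38.6 to 120.3 RPKM.

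The groups were then compared gene by gene, which addresses whether constitutive BMPR1a signaling in AT2s was accompanied by other levels of AT1 transcripts. None of the 10 genes was called different between caBmpr1a and control libraries by edgeR's quasi-likelihood test with both criteria applied, an adjusted p under 0.05 and more than a 2-fold difference. Of all 16723 genes tested, 38 (0.227%) were called higher and 2 (0.012%) lower. At an unadjusted p under 0.05, *Gramd2* and *Rtkn2* were higher and *Aqp5* was lower, that is 2 of 10 higher against 4.62% of all genes and 1 of 10 lower against 5.05%. DESeq2 called 1 member, *Gramd2*, as higher, where it called 0.87% of the genes it tested higher and 0.183% lower. Limma-voom called 0. Within the 4 libraries without Y-linked reads edgeR called 0 members, with 0.294% of all genes called higher and 0.049% lower.

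For 8 of 10 members the log2 fold change was above 0, against 48.8% of all genes, and for 2 of 10 it was below 0, against 51.2%. Its median was 0.20 against -0.01 over all genes. The spread between libraries of 1 group was also wider for these genes: the median within-group SD of log2(CPM + 0.5) was 0.41 for the 10 members and 0.25 for all genes tested, and 7 of 10 members were above the latter. For *Gramd2* every caBmpr1a library was above every control library (1 of 10 members, against 7% of all genes). For *Aqp5* the caBmpr1a libraries were all below the control libraries (1 of 10, against 10.1% of all genes). In the remaining 8 members the groups overlapped. With scaling by library size alone, which shifted the median of all genes to 0.12, the caBmpr1a libraries of 2 members, *Gramd2* and *Rtkn2*, lay above control, against 12.6% of all genes under that scaling, and those of 1 member, *Aqp5*, lay below, against 3.91%.

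**Figure D2:**
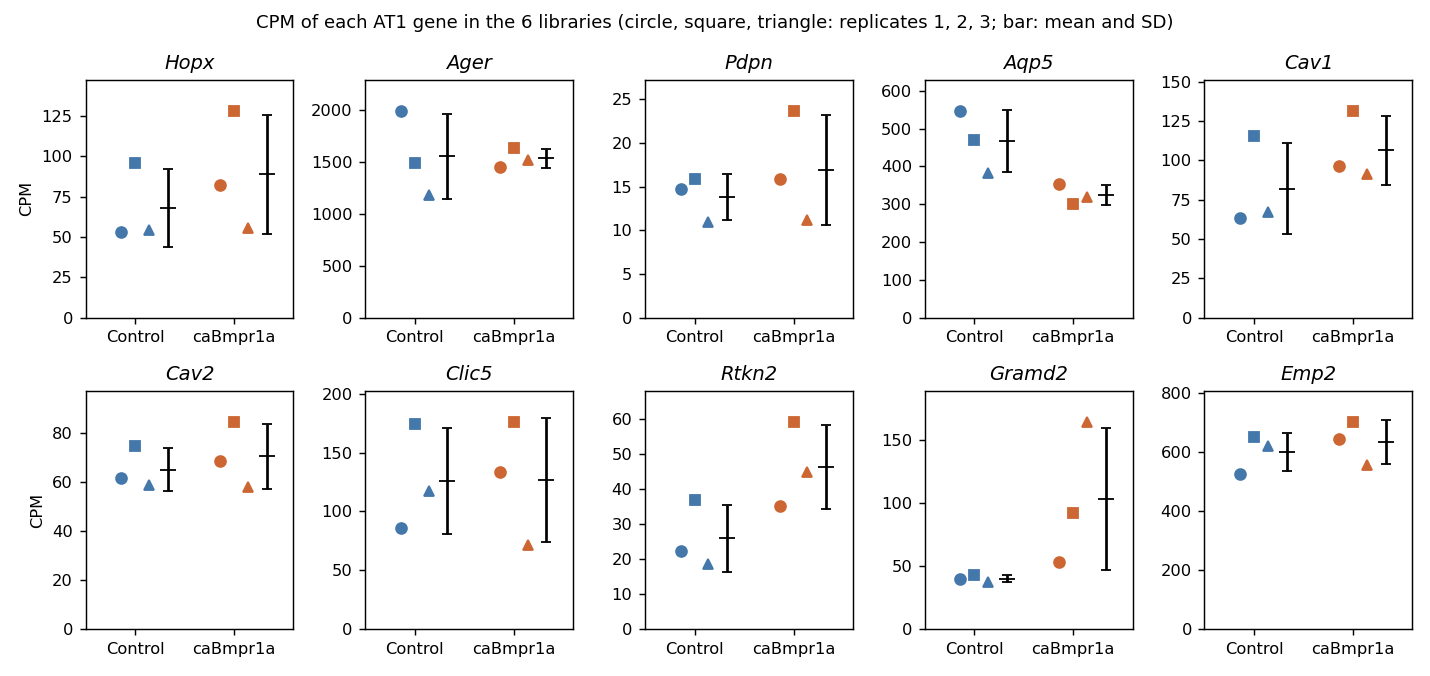
CPM of each of the 10 AT1 genes in the 3 control (blue) and 3 caBmpr1a (orange) libraries, with the mean and SD of each group in black; every axis starts at 0. The groups are separate for *Gramd2* and *Aqp5* and overlap for the other 8 genes.

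*Gramd2* encodes a GRAM-domain protein of contact sites between the endoplasmic reticulum and the plasma membrane, and is a marker of AT1s in mouse lung. It was at 39.8, 42.6 and 37.5 CPM in control replicates 1, 2 and 3 and at 52.9, 92.6 and 164.6 CPM in caBmpr1a replicates 1, 2 and 3. The 3 control libraries lay close together and the caBmpr1a libraries were spread over a wide range above them. The log2 fold change was 1.37 (standard error 0.35, 95% interval from 0.58 to 2.17, unadjusted p = 0.00389, adjusted p = 0.26 with edgeR), a fold of 2.59. It was called with DESeq2 (adjusted p = 0.0029), with the Y-linked reads as a covariate (log2 fold change 1.26, adjusted p = 0.0469, where 0.646% of all genes were called higher and 0.203% lower) and without caBmpr1a replicate 1 (1.71, adjusted p = 0.0344). Over all alternatives the log2 fold change ran from 0.90 to 1.71 and the adjusted p from 0.0029 to 0.67. Without caBmpr1a replicate 3, the highest library, it was 0.91. Within the 4 libraries without Y-linked reads it was 0.90, and within the pair with them 2.05. The order of the caBmpr1a libraries, with replicate 3 above replicate 2 above replicate 1, was that of 18.7% of all genes tested and of 1 of the 10 members, *Gramd2*. It was that of 5 of 8 BMP targets (*Id1*, *Id2*, *Id3*, *Smad7* and *Atoh8*, and not *Smad6*, *Smad9* or *Bambi*). Of the other lists described below, 5 of 7 lymphatic and mesothelial and 4 of 9 airway markers had it. So did 8 of 30 other AT1 genes, 1 of 12 endothelial and 0 of 12 leukocyte markers. *Id2*, *Smad7* and *Bambi* were named after their values were seen.

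The table's model of *Gramd2* lies on mm10 chr9:59707764-59716424, plus strand, with 11 exon blocks. It ends before the end of the RefSeq gene, at 59718873, and starts 27931 bases inside that gene. Reads of exons outside the model were therefore not counted. The 250 bases before this start are shown because *Gramd2* had the largest difference of the 10 genes (RefSeq, GRCm38.p6, chr9:59707514-59707763, plus strand, 5′ to 3′; capitals would mark a TEAD, SMAD1/5 or NKX2-1 element, and there is none):
Gramd2: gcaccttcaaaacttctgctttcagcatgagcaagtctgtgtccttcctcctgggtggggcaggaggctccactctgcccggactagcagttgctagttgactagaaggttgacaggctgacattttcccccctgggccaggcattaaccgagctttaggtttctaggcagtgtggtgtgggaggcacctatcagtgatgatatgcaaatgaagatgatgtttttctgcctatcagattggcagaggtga

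*Rtkn2* encodes rhotekin 2, a protein that binds small GTPases. Its CPM were 22.2, 36.9 and 18.7 in control replicates 1, 2 and 3 and 35.3, 59.2 and 44.9 in caBmpr1a replicates 1, 2 and 3. The lowest caBmpr1a library was just under the highest control library. That gives a log2 fold change of 0.84 (standard error 0.28, 95% interval from 0.21 to 1.48, unadjusted p = 0.0152, adjusted p = 0.392 with edgeR), with 0.81 within the 4 libraries without Y-linked reads and 1.02 within the pair with them. The table's model of *Rtkn2* lies on chr10:67979598-68043864, plus strand, and the RefSeq gene runs on to 68058429, so reads beyond the model were not counted. Of its counted exon bases 5.49% lie under Gm16212, an antisense gene of GENCODE. Strand was not used in the counting, so reads of the 2 genes cannot be told apart there.

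*Aqp5* was lower in the caBmpr1a libraries. It was at 547.3, 470.2 and 383 CPM in control replicates 1, 2 and 3 and at 352.5, 299.6 and 320.3 CPM in caBmpr1a replicates 1, 2 and 3, so that the highest caBmpr1a library was below the lowest control library. This is a log2 fold change of -0.53 (standard error 0.16, 95% interval from -0.89 to -0.16, unadjusted p = 0.00997, adjusted p = 0.352 with edgeR), a fold of 0.694. Its size was -0.36 within the 4 libraries without Y-linked reads and -0.77 within the pair with them. *Aqp5* lies on chr15:99591028-99594829, plus strand, with 4 exon blocks. It was the single member with an unadjusted p under 0.05 in the downward direction.

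*Ager* differed by less than the spread between control libraries. Its CPM were 1995, 1490 and 1184 in control replicates 1, 2 and 3 and 1454, 1634 and 1519 in caBmpr1a replicates 1, 2 and 3. Control replicate 1 was the highest and control replicate 3 the lowest of the 6 libraries, with the whole caBmpr1a group between them. Between the groups the log2 fold change was -0.02 (standard error 0.20, 95% interval from -0.48 to 0.44, adjusted p = 0.983 with edgeR), its sign was positive with the other 3 scalings, and it was 0.24 within the 4 libraries without Y-linked reads and -0.39 within the pair with them. The gene lies on chr17:34597850-34600937, plus strand, with 9 exon blocks.

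*Hopx* encodes a small homeodomain protein that does not bind DNA and is widely used to identify AT1s. It was at 53.4, 95.9 and 54.2 CPM in control replicates 1, 2 and 3 and at 82.2, 128.4 and 55.9 CPM in caBmpr1a replicates 1, 2 and 3. In both groups replicate 2 was highest, and 1 caBmpr1a library was at the level of the 2 low control libraries. For *Hopx* the log2 fold change was 0.39 (standard error 0.33, 95% interval from -0.36 to 1.13, adjusted p = 0.725 with edgeR), and ranged from 0.04 to 0.72 when 1 library was left out. It was 0.53 within the 4 libraries without Y-linked reads and 0.06 within the pair with them. *Hopx* lies on chr5:77086986-77115123, minus strand, and 26.6% of its counted exon bases lie under Hopxos, an antisense gene of GENCODE whose reads cannot be told apart from its own.

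*Pdpn* encodes podoplanin, a mucin-type glycoprotein of the AT1 apical membrane that lymphatic and mesothelial cells also carry. Its CPM were 14.7, 15.9 and 10.9 in control replicates 1, 2 and 3 and 15.9, 23.7 and 11.2 in caBmpr1a replicates 1, 2 and 3. Apart from caBmpr1a replicate 2, the caBmpr1a libraries lay within the control range. Its log2 fold change was 0.29 (standard error 0.27, 95% interval from -0.34 to 0.92, adjusted p = 0.758 with edgeR), and it was -0.02 without caBmpr1a replicate 2. Within the 4 libraries without Y-linked reads it was 0.60, and within the pair with them -0.39. The gene lies on chr4:143267409-143299564, minus strand, with 6 exon blocks.

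*Cav1* and *Cav2* encode the caveolins that form the coat of caveolae, the small membrane pits of AT1s and of endothelial cells. *Cav1* was at 63.4, 115.3 and 67.2 CPM in control replicates 1, 2 and 3 and at 96.3, 131.5 and 91.3 CPM in caBmpr1a replicates 1, 2 and 3. *Cav2* was at 61.8, 74.9 and 58.6 CPM in the same control libraries and at 68.8, 84.5 and 58.1 CPM in the same caBmpr1a libraries. For both genes caBmpr1a replicate 2 was highest and control replicate 2 second. *Cav1* differed by a log2 fold change of 0.38 (standard error 0.25, 95% interval from -0.19 to 0.94, adjusted p = 0.654 with edgeR), and that of *Cav2* was 0.12 (standard error 0.16, 95% interval from -0.26 to 0.49, adjusted p = 0.851), or -0.02 without caBmpr1a replicate 2. Within the 4 libraries without Y-linked reads the values were 0.36 for *Cav1* and 0.24 for *Cav2*, and within the pair with them 0.53 and -0.09. The 2 genes are neighbours on mm10 chromosome 6, both on the plus strand, *Cav2* at chr6:17281185-17289130 and *Cav1* at chr6:17306335-17341328. Their promoters are shown as those of a neighbouring pair whose levels varied together with *Hopx* (RefSeq, GRCm38.p6, the 250 bases before the start, chr6:17306085-17306334 for *Cav1* and chr6:17280935-17281184 for *Cav2*, plus strand, 5′ to 3′; capitals mark the letters of the NKX2-1 element):
Cav1: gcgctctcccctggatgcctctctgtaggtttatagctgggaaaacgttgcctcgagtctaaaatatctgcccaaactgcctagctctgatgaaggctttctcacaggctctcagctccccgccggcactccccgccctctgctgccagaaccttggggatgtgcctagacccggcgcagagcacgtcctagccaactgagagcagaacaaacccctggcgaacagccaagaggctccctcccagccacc
Cav2: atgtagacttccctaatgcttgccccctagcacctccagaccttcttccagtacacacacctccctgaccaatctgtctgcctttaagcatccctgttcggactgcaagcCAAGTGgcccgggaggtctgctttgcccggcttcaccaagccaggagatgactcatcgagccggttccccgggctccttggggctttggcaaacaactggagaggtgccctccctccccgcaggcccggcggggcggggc

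*Clic5* encodes a chloride intracellular channel protein that associates with the cortical actin cytoskeleton. It was at 85.6, 174.6 and 117.1 CPM in control replicates 1, 2 and 3 and at 133.6, 175.9 and 71.3 CPM in caBmpr1a replicates 1, 2 and 3. The 2 highest libraries were 1 from each group and had nearly the same value. *Clic5* differed by 0.01 on the log2 scale (standard error 0.34, 95% interval from -0.78 to 0.80, adjusted p = 0.995 with edgeR), so a difference of 1.5-fold in either direction lies inside the interval. It was 0.12 within the 4 libraries without Y-linked reads and -0.26 within the pair with them. The table's model, on chr17:44188572-44280168, plus strand, starts 53810 bases inside the RefSeq gene.

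*Emp2* varied least of the 10 between libraries. Its CPM were 527.4, 651.8 and 620 in control replicates 1, 2 and 3 and 645.5, 702.4 and 555.1 in caBmpr1a replicates 1, 2 and 3, with the lowest value in a control library. Its log2 fold change was 0.08 (standard error 0.15, 95% interval from -0.26 to 0.42, adjusted p = 0.887 with edgeR), which leaves a 2-fold difference outside the interval, with 0.12 within the 4 libraries without Y-linked reads and 0.07 within the pair with them. The gene lies on chr16:10281749-10313968, minus strand. Its promoter is shown because it was the single one of the member promoters to hold the SMAD1/5 element, marked in capitals (RefSeq, GRCm38.p6, chr16:10313969-10314218, minus strand, 5′ to 3′):
Emp2: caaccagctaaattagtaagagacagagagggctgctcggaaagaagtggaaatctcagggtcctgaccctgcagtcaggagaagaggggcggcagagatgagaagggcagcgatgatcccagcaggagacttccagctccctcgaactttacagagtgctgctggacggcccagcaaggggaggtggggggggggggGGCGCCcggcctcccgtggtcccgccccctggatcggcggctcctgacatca

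**Figure D3:**
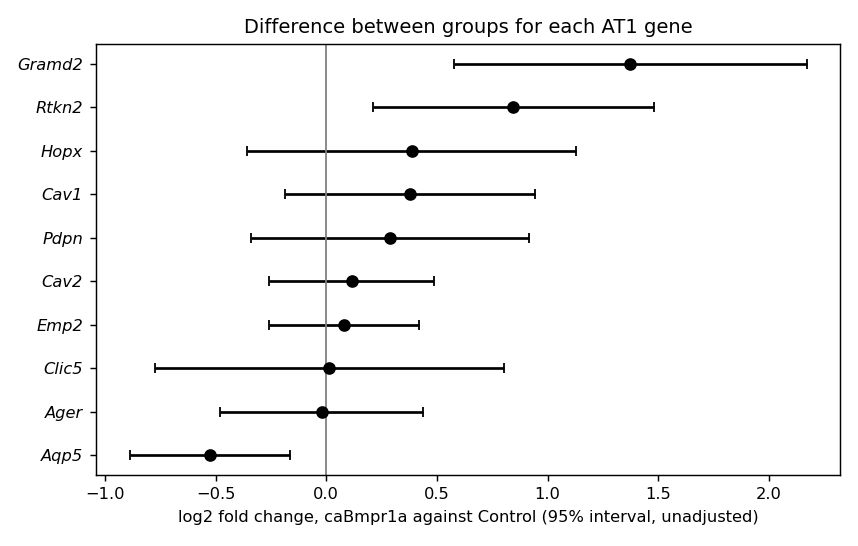
Log2 fold change of caBmpr1a against control for each of the 10 AT1 genes (points) with its unadjusted 95% interval (bars), on TMM-scaled counts. The intervals of *Gramd2* and *Rtkn2* lie above 0, that of *Aqp5* lies below 0, and the other 7 include 0.

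Promoters of 9 of the 10 members were matched by symbol in the RefSeq table, with 14 promoters in all, and *Rtkn2* was not matched. In the 250 bases before the start, on both strands, GGAATG (the TEAD element) was in 0 of the 14 promoters and in 12.6% of all 32851 promoters. GGCGCC (the SMAD1/5 element, the same on both strands) was in 1 of the 14 (*Emp2*) and in 9.59% of all. CAAGTG (the NKX2-1 element) was in 1 of the 14 (*Cav2*) and in 11.6% of all. These are counts of letters in these windows, and several of the 14 promoters belong to the same gene.

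The 10 genes were next compared with each other across the 6 libraries, using log2(CPM + 0.5). Of the 45 pairs 32 had a positive Pearson's r, from -0.73 to 0.98, with a median of 0.43. By an exact permutation test over the libraries (two-sided), 10 pairs had a p under 0.05, and none remained after Benjamini-Hochberg adjustment over the 45 pairs (lowest adjusted p = 0.125). With 6 libraries the lowest possible p of this test is too high for 1 pair alone to pass that adjustment, however strong its correlation. The adjusted values therefore cannot decide on single pairs. For Spearman's rank correlation, 7 pairs had an exact permutation p under 0.05. All values of a library share its scaling and its cells, and the 6 libraries include both groups.

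*Hopx* was closest to *Cav2* (r = 0.98, exact permutation p = 0.00833; Spearman = 0.77, exact permutation p = 0.103), and the 2 genes kept r = 0.91 without the 2 libraries farthest from the median of *Hopx*. *Hopx* and *Cav1* (r = 0.92, exact permutation p = 0.00556) ranked the 6 libraries in the same order (Spearman = 1, exact permutation p = 0.00278), with r = 0.72 without the 2 farthest libraries. *Pdpn* and *Cav2* followed (r = 0.95, exact permutation p = 0.00278; Spearman = 0.94, exact permutation p = 0.0167; r = 0.84 without the 2 farthest). *Clic5* and *Emp2* also varied together (r = 0.92, exact permutation p = 0.0167; Spearman = 0.94, exact permutation p = 0.0167; r = 0.81 without the 2 farthest). None of these p-values passed the adjustment over the 45 pairs, which 1 pair alone could not pass with 6 libraries.

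In a set chosen after these values were seen, *Hopx*, *Pdpn*, *Cav1*, *Cav2* and *Clic5*, all 10 pairs were positive, with r from 0.68 to 0.98, and from 0.67 to 0.99 when the mean of each group was first removed. Without the 2 libraries farthest from the median of the first gene of each pair, in the order given here, they lay between 0.17 and 0.91. The same 2 libraries were high for most members: in 7 of the 10 members caBmpr1a replicate 2 was the highest library, against 10.3% of all genes tested, and in 6 of 10 the 2 highest libraries were caBmpr1a replicate 2 and control replicate 2, against 3.68% of all genes. These 2 libraries come from different groups and, by the labels, from mice of different ages.

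**Figure D4:**
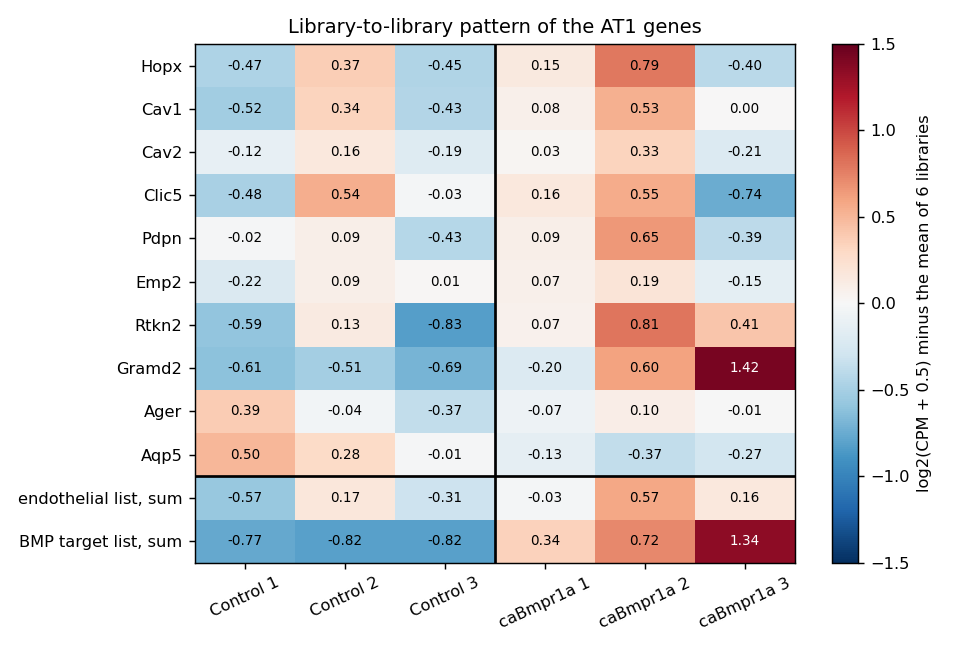
Log2(CPM + 0.5) of each AT1 gene minus its mean over the 6 libraries (columns), with the summed CPM of the endothelial and BMP target lists treated the same way in the lower 2 rows; red is above and blue below the mean. The 7 genes from *Hopx* to *Rtkn2* are highest in caBmpr1a replicate 2, *Gramd2* is highest in caBmpr1a replicate 3 (1.42 above its mean), and *Ager* and *Aqp5* are highest in control replicate 1.

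*Ager*, *Aqp5* and *Gramd2* stood outside this pattern. *Ager* had r between -0.41 and 0.43 with the other 9 genes, and it was highest in control replicate 1. *Aqp5* was negative with 8 of the other 9, most so with *Gramd2* (r = -0.73, exact permutation p = 0.103; Spearman = -0.77, exact permutation p = 0.103). The groups of these 2 genes were separate in opposite directions, and with the group means removed their r was -0.18. *Aqp5* was then positive with 2 of 9 genes, *Ager* (r = 0.79, against 0.40 before the group means were removed) and *Pdpn* (r = 0.17). It was then most negative with *Emp2* (-0.49), which was also its lowest partner with scaling by library size alone (-0.79). *Gramd2* was closest to *Rtkn2* (r = 0.74, exact permutation p = 0.0903; Spearman = 0.89, exact permutation p = 0.0333), with r = 0.36 after the group means were removed. Among the 4 libraries without Y-linked reads the r of *Ager* with the other 9 genes ran from -0.34, with *Aqp5*, to 0.99, with *Rtkn2*. Its r with *Hopx* was 0.99 there, with *Clic5* 0.88 and with *Gramd2* 0.80, values over 4 libraries that carry no test.

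**Figure D5:**
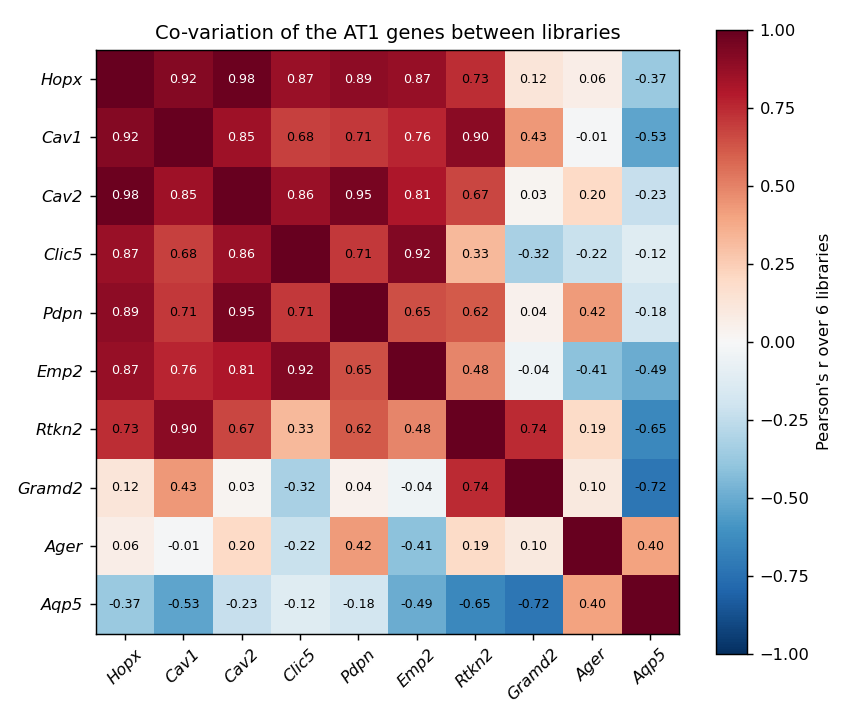
Pearson's r of log2(CPM + 0.5) over the 6 libraries for the 45 pairs of AT1 genes (color from -1 to 1, value in each cell). The block from *Hopx* to *Emp2* is positive throughout, and the rows of *Ager* and *Aqp5* hold no value above 0.425.

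Over all genes with a mean of at least 5 CPM (10799 compared with each), the genes whose pattern over the 6 libraries was most like that of *Hopx* were *Sept4* (r = 0.99), *Cav2* (r = 0.98) and *H2-Q5* (r = 0.98). Those most like *Ager* were *Dynlrb2* (r = 0.99), *Inpp5k* (r = 0.99) and *Tulp1* (r = 0.99). These are the highest of many correlations over few libraries and carry no test. *Dynlrb2* ran from 18.3 CPM in control replicate 1 to 7.84 CPM in control replicate 3, the same ends as *Ager*.

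Beside these 10 genes, a list of 30 other AT1 genes was followed. For this list and those below, the shares of all genes tested are the background. These were 0.227% called higher and 0.012% lower, and 4.62% higher and 5.05% lower at an unadjusted p under 0.05. All 30 were tested, 20 had a positive and 10 a negative log2 fold change, the median was 0.26, and edgeR called 0 of them, with 5 higher and 1 lower at an unadjusted p under 0.05. The largest differences were those of *Cyp2b10* and *Timp3*. *Timp3*, an inhibitor of metalloproteinases, was at 184.8, 190.9 and 164.5 CPM in control and 270.0, 386.1 and 645.7 CPM in caBmpr1a libraries (log2 fold change 1.27, adjusted p = 0.19 with edgeR), the same order of libraries within caBmpr1a as *Gramd2*. *Cyp2b10*, a cytochrome P450, was at 276.9, 179.2 and 87.9 CPM in control and 72.4, 62.6 and 68.3 CPM in caBmpr1a libraries (log2 fold change -1.42, adjusted p = 0.232). In 15 of the 30 genes caBmpr1a replicate 2 was the highest library.

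No relative or partner of the members was called, where 0.227% of all genes tested were called higher and 0.012% lower. With so low a share, 0 calls in short lists say little about these genes. Of 9 genes of the caveola list in the table, which includes *Flot1* and *Flot2*, 6 were above and 3 below 0. The median was 0.02, with 0 called and 0 at an unadjusted p under 0.05. *Sdpr* (cavin 2) differed by 0.48 on the log2 scale (adjusted p = 0.655 with edgeR) and *Prkcdbp* (cavin 3) 0.41 (adjusted p = 0.673). *Ptrf* (cavin 1) differed by -0.003 (adjusted p = 0.997). Of 18 paralogs tested 12 were above 0 and 0 were called, with 2 higher and 1 lower at an unadjusted p under 0.05. Among them *Emp1*, a paralog of *Emp2*, was at 21.1, 23.9 and 26.6 CPM in control and 34.4, 43.5 and 51.6 CPM in caBmpr1a libraries (log2 fold change 0.86, adjusted p = 0.132), and *Aqp9* had 0.79 (adjusted p = 0.679). Of 12 genes for AGER ligands and podoplanin partners 5 were above 0 and 0 were called, with 1 higher at an unadjusted p under 0.05. The largest values were those of *S100a8* (1.47, adjusted p = 0.648) and *S100a9* (1.11, adjusted p = 0.669), both below 10 CPM in every library.

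AT2 genes and BMP targets give the setting of these values. Of 20 AT2 genes 16 had a negative log2 fold change, the median was -0.30 and edgeR called 0, with 1 higher and 8 lower at an unadjusted p under 0.05. On the log2 scale *Lyz2* differed by -1.09 (adjusted p = 0.273), *Cxcl15* -1.01 (adjusted p = 0.367) and *Sftpc* -0.15 (adjusted p = 0.858). All 8 BMP targets were above 0, with a median of 2.35, and 5 were called: *Id3* (4.58, adjusted p = 0.00758), *Atoh8* (4.10, adjusted p = 0.00289), *Id1* (3.61, adjusted p = 0.0172), *Smad9* (3.37, adjusted p = 0.00289) and *Smad6* (1.27, adjusted p = 0.0431).

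Endothelial markers were high in the same libraries as several members. The summed level of 12 endothelial markers was 500.4, 838 and 600.2 CPM in control replicates 1, 2 and 3 and 726.7, 1106.2 and 828.5 CPM in caBmpr1a replicates 1, 2 and 3. It was highest in caBmpr1a replicate 2 and lowest in control replicate 1, as were *Cav1*, *Hopx* and *Emp2*. Of the 12 markers 11 had a positive log2 fold change (median 0.61), 11 were highest in caBmpr1a replicate 2, and edgeR called 0, with 6 higher at an unadjusted p under 0.05. *Pecam1*, which defines endothelium, was at 42.3, 84.1 and 50 CPM in control and 70.9, 115.1 and 87.6 CPM in caBmpr1a libraries (log2 fold change 0.63, adjusted p = 0.508). *Emcn* had 0.89 (adjusted p = 0.493) and *Cldn5* 0.74 (adjusted p = 0.442). *Cav1* and *Cav2* are expressed in endothelium as well as in AT1s, and the part of endothelial RNA in their values was not tested.

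Mesenchymal markers were above 0 in 12 of 12 genes (median 0.61), with 0 called and 6 higher at an unadjusted p under 0.05. Their summed level ran from 230.4 to 339 CPM in control and from 395.7 to 485.9 CPM in caBmpr1a libraries. Like the endothelial sum, it was lowest in control replicate 1 and highest in caBmpr1a replicate 2. Of the 12 markers 7 were highest in caBmpr1a replicate 2, against 10.3% of all genes tested. On the log2 scale *Col1a1* differed by 0.70 (adjusted p = 0.114), *Col3a1* 0.77 (adjusted p = 0.132) and *Des* 0.93 (adjusted p = 0.422). Leukocyte markers were above 0 in 11 of 12 genes (median 0.65), from 81.3 to 99.5 CPM summed in control and from 73 to 196.1 CPM in caBmpr1a libraries, highest in caBmpr1a replicate 1, with 0 called and 1 higher at an unadjusted p under 0.05. *Itgax* had 1.30 (adjusted p = 0.532), *Tyrobp* 0.89 (adjusted p = 0.56) and *Ptprc* 0.73 (adjusted p = 0.674). No defining marker of these 3 lists was at 0 in every library.

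Lymphatic and mesothelial markers, whose cells also carry *Pdpn*, were above 0 in 7 of 7 tested genes (median 0.75), from 31.4 to 52.5 CPM summed in control and from 46.5 to 119.1 CPM in caBmpr1a libraries, with 0 called and 3 higher at an unadjusted p under 0.05. They were highest in caBmpr1a replicate 3, where *Pdpn* was at its lowest within that group. *Msln* had 1.14 (adjusted p = 0.478) and *Lrrn4* 0.86 (adjusted p = 0.623). Of 9 airway markers tested 5 were above 0 and 4 below, and 1 was called, *Tppp3* (log2 fold change 1.85, adjusted p = 0.0165). At an unadjusted p under 0.05, 1 was higher and 1 lower. The lower one was *Cyp2f2* (log2 fold change -0.53, adjusted p = 0.19 with edgeR). The basal cell keratin *Krt5* was at 0 in all 6 libraries. The part of these other cells in the values of the 10 AT1 genes was not tested.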

How the data were processed

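Poly(A) RNA of sorted AT2s was sequenced as paired reads. The authors trimmed the reads, aligned them to mm10 with HISAT2, removed duplicates and deposited raw counts per gene made with featureCounts 1.5.3. The paper's methods state that fragments were counted. The file header names no option for pairs, strand or overlapping genes, and 56.9% to 60.8% of the counts from 1 to 20 were even. Mates were therefore treated as counted separately, strand as unused, and reads on overlapping genes as left out. Separate counting of mates overstates the precision of low counts. Groups and replicates came from the labels.

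Counts were scaled by TMM and tested with edgeR 4.0.16 in R 4.3.3 (filterByExpr at a minimum of 10 counts, then the quasi-likelihood test, with Benjamini-Hochberg adjusted p-values over 16723 genes). All 10 members passed the filter. A call needed an adjusted p below 0.05 together with a log2 fold change beyond 1 in size. Intervals are 95% intervals of the fit. RPKM used the exon length of the table, and a pseudocount of 0.1 for their order. The paper's methods name DESeq2 (1.42.0 here), which was an alternative, as was limma-voom (limma 3.58.1). On simulated counts for this comparison (200 of 16723 genes changed by a log2 of 2), edgeR recovered 86.3% of the changed genes with 2.08% false calls, DESeq2 87.7% with 8.52%, and voom 85.2% with 2.64%. The simulated spread was the trend over genes of like level, whereas the members had a wider median within-group SD than all genes (0.41 against 0.25). Recovery for genes as variable as the members, or for changes nearer 2-fold, was not simulated.

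Every pair of libraries of 1 group differed by more than counting noise. The members, the gene lists and the motifs were chosen with earlier results of these data known. From each list the text names the genes that passed both thresholds, otherwise the 2 tested genes with the greatest log2 fold change in size, and in addition Sftpc, Id1, Pecam1, Ptprc and Col1a1. Id2, Smad7, Bambi, Cyp2f2 and Ptrf were named besides, after their values were seen. Every member is named, with the 3 genes most like Hopx and Ager. Promoters are those of RefSeq (GRCm38.p6), and antisense genes those of GENCODE M21. The alternatives were other scalings, filters and tests, covariates for age and Y-linked reads, the replicate number as a block, halved counts, and each library left out in turn.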

Additional observations from a re-analysis of the deposited data

How the results depend on the processing

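The numbers of members called were 0 higher and 0 lower in all alternatives except that 1, *Gramd2*, was called higher with DESeq2, with Y-linked reads as a covariate and without caBmpr1a replicate 1 (0 to 1 over the libraries left out in turn). Its log2 fold change was 1.38, 1.26 and 1.71 there. Members at an unadjusted p under 0.05 ranged from 1 to 3 higher and from 0 to 1 lower when 1 library was left out: *Rtkn2* was lost without control replicate 1, control replicate 3 or caBmpr1a replicate 2 (log2 fold change 0.74, 0.65 and 0.64), and *Aqp5* without caBmpr1a replicate 2 (-0.46). With library size only, 2 members lay wholly above control, *Gramd2* and *Rtkn2*, as did 12.6% of all genes; that scaling moved the median of all genes to 0.12.

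The sign of 5 members, none of them called, reversed in some settings. For *Ager* the value became 0.0127 with the size factors of DESeq2, 0.0448 with upper-quartile scaling, 0.106 with library size only, 0.0436 with a minimum count of 50, 0.0014 with DESeq2, 0.0084 with limma-voom, 0.013 with the replicate block, 0.0081 with Y-linked reads as a covariate, 0.243 in the 4 libraries without Y-linked reads, and between -0.184 and 0.194 with 1 library left out (positive without control replicate 1, caBmpr1a replicate 1 or caBmpr1a replicate 3). For *Clic5* it became -0.0153 with limma-voom, -0.0203 with the replicate block, -0.0287 with Y-linked reads as a covariate, and between -0.284 and 0.335 with 1 library left out (negative without control replicate 1, control replicate 3 or caBmpr1a replicate 2). *Pdpn* (-0.0192 to 0.56) and *Cav2* (-0.0222 to 0.276) turned negative without caBmpr1a replicate 2, and *Emp2* (-0.00928 to 0.205) without control replicate 1. The causes were not tested.

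Over all genes, calls were 38 higher and 2 lower. DESeq2 gave 119 and 25, Y-linked reads as a covariate 108 and 34, limma-voom 25 and 1. The lower calls were 1 with upper-quartile scaling, 1 with library size only, 5 without a filter, 1 with a minimum count of 50, 5 with the replicate block, 1 with age as a covariate and 8 in the 4 libraries. With 1 library left out there were 12, 6 and 7 higher calls without control replicates 1, 2 and 3, and 59, 8 and 25 without caBmpr1a replicates 1, 2 and 3, with 0 to 4 lower. Libraries with the same replicate number had deviations that correlated at -0.32, 0.25 and -0.54, and not every library correlated best with its own number. The highest value, 0.61, was between control replicate 1 and caBmpr1a replicate 3. These correlations cannot decide whether the numbers pair libraries, and the labels do not say. The block called 0 members. With it the standard error was lower for *Hopx* (0.158 against 0.326), *Cav1* (0.145 against 0.247), *Rtkn2*, *Pdpn*, *Cav2*, *Clic5* and *Gramd2*. It was higher for *Ager*, *Aqp5* and *Emp2*. The lowest count of a member was 287, far above the limit of 3 counts.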
